A study of Mus musculus with 12 samples.

Results

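The genes described here take up, export and store lipid, and were followed in the spinal cord of mice with and without Plekhg5 and with and without a human SOD1-G93A transgene. They were chosen by symbol, and 10 of the 45906 genes in the count table belong to them, namely Apoe, Apoc1, Lpl, Abca1, Abcg1, Soat1, Nceh1, Plin2, Ch25h and Fabp5. Plekhg5 is an activator of small GTPases that takes part in autophagy of motoneurons, and SOD1-G93A is a mutant human superoxide dismutase that causes a motoneuron disease in mice. Poly-A RNA of whole spinal cord was sequenced from 12 mice at 7 months of age, all kept on a C57BL/6 background. The 4 genotypes were Plekhg5+/+, Plekhg5-/-, Plekhg5+/+ SOD1-G93A and Plekhg5-/- SOD1-G93A, with 3 mice each. Mice lacking Plekhg5 had been crossed with a low copy SOD1-G93A line, so both SOD1-G93A groups carry human SOD1 beside the mouse Sod1 gene. The question behind the design was whether loss of Plekhg5 changes the response of the spinal cord to mutant SOD1.

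Blood lipoproteins hardly reach the central nervous system, so cholesterol moves between its cells on particles built around apolipoprotein E, which is made mainly by astrocytes and by activated microglia. ABC transporters load cholesterol onto these particles, and receptors and lipases bring lipid into the receiving cell. Cholesterol that is neither used nor exported is esterified and kept in lipid droplets. Microglia that take up myelin debris carry a heavy load of cholesterol, and Apoe, Lpl and Fabp5 are well known genes of microglia around damaged tissue.

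The libraries held between 30415643 and 38743628 counts. The counts of the members ran from 21 for Ch25h to 86110 for Apoe. They were lowest for Ch25h (21 to 254 per library) and Apoc1 (52 to 161). The targeted genes followed the labels. Plekhg5 stood at 19.4 to 24.96 CPM (counts scaled to library size with TMM) in the 6 Plekhg5+/+ libraries with or without the transgene and at 3.28 to 4.72 CPM in the 6 Plekhg5-/- libraries, and human SOD1 at 4421 CPM or more with the transgene and at 5.47 CPM or less without it. Markers of spinal cord summed to 519 to 784 CPM and those of forebrain to 4.63 to 6.42 CPM. Y-linked transcripts were found in 3 of 3 Plekhg5+/+ libraries, 2 of 3 Plekhg5-/- libraries, 2 of 3 Plekhg5+/+ SOD1-G93A libraries and 1 of 3 Plekhg5-/- SOD1-G93A libraries. In whole tissue, fewer cells of a type and less RNA per cell cannot be told apart.

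A few libraries stood apart and touch the results below. Plekhg5+/+ SOD1-G93A replicate 1 was the highest of the 12 libraries for 7 of the 10 members, and 12 microglial markers summed there to 1686 CPM, against 912 and 972 CPM in the other two mice of its genotype. Plekhg5-/- replicate 2 held transcripts of fat cells. Its 5 adipocyte markers summed to 23.6 CPM, compared with 0.231 to 2.90 CPM in the other 11 libraries. Ucp1, a gene of brown fat that was looked up after values had been seen, stood at 32.5 CPM there, at 11.4 CPM in Plekhg5+/+ replicate 1 and at 1.62 CPM or less in the remaining 10 libraries. Where the highest SOD1-G93A library or the Plekhg5-/- library with fat transcripts carried much of a member's difference, the value without it is given beside it.

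The upstream sequence of 6 of the 10 members was at hand in 8 windows of RefSeq (GRCm38.p6), which reach from 250 bases before a start site to 50 bases after it. Sequences are shown for Apoe, the member that passed the test, for Abca1, the textbook target of the oxysterol receptor LXR, and for Ch25h, whose product makes an oxysterol. The stretches run 5' to 3' on the gene's strand, leave out bases next to the start site, and carry motifs in capitals.
Apoe (chr7:19699239-19699438, minus strand): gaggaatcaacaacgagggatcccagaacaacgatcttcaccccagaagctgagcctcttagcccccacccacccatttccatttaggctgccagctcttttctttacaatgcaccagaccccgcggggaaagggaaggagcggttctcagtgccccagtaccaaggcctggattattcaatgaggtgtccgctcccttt
Abca1 (chr4:53159989-53160145, minus strand): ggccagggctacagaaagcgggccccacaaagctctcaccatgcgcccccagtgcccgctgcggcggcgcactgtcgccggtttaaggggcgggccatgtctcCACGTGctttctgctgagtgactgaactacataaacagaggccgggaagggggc
Ch25h (chr19:34475199-34475398, minus strand): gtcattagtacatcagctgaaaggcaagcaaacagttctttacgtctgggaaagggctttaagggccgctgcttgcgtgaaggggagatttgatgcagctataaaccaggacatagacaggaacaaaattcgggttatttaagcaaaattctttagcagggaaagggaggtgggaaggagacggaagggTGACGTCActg
The Apoe stretch lay inside the span of the Apoe row of the count table, over no exon of GENCODE vM21, and 2 further Apoe windows lie downstream. Of the Ch25h stretch, 16 bases lay on an annotated exon. The capitals in Abca1 are an E-box (CACGTG) and those in Ch25h a cyclic AMP element (TGACGTCA).

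These motifs were picked after the windows had been read, and were searched on both strands. The E-box was found in 3 of the 8 windows, those of Abca1, Nceh1 and Plin2, and in 7.15% of all 32851 windows. The cyclic AMP element was found in 1 of 8 windows and in 1.79% of all. A core of the LXR element called DR4, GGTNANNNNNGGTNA, was found in 1 of 8 windows and in 0.718% of all. That match lies in the Abca1 window, 67 to 53 bases before the start, and reads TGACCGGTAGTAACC on the strand of the gene. This match lies inside the span of the Abca1 row of the count table, which reaches further upstream than the start site of that window. A match is a description of letters and was not tested for binding.

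The levels of the 10 genes spanned a wide range. Per length of exon, in Plekhg5+/+ mice, Apoe was the most abundant with 353 ± 24.0 RPKM (CPM per kilobase of exon, mean ± SD, n = 3), followed by Fabp5 with 109 ± 13.6 RPKM, Nceh1 with 21.6 ± 1.82 RPKM and Abcg1 with 14.7 ± 1.87 RPKM. None of these 4 genes overlapped with the next one in this order. Plin2 (7.66 ± 1.34 RPKM) and Soat1 (7.15 ± 0.770 RPKM) overlapped. The same was true along the lower end, from Abca1 (5.58 ± 0.223 RPKM) over Apoc1 (4.24 ± 1.24 RPKM) and Lpl (3.07 ± 1.44 RPKM) to Ch25h (1.92 ± 1.16 RPKM). In Plekhg5+/+ SOD1-G93A mice the 4 most abundant genes were in the same order, and Lpl took the fifth place with 11.4 ± 7.80 RPKM.

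**Figure D1:**
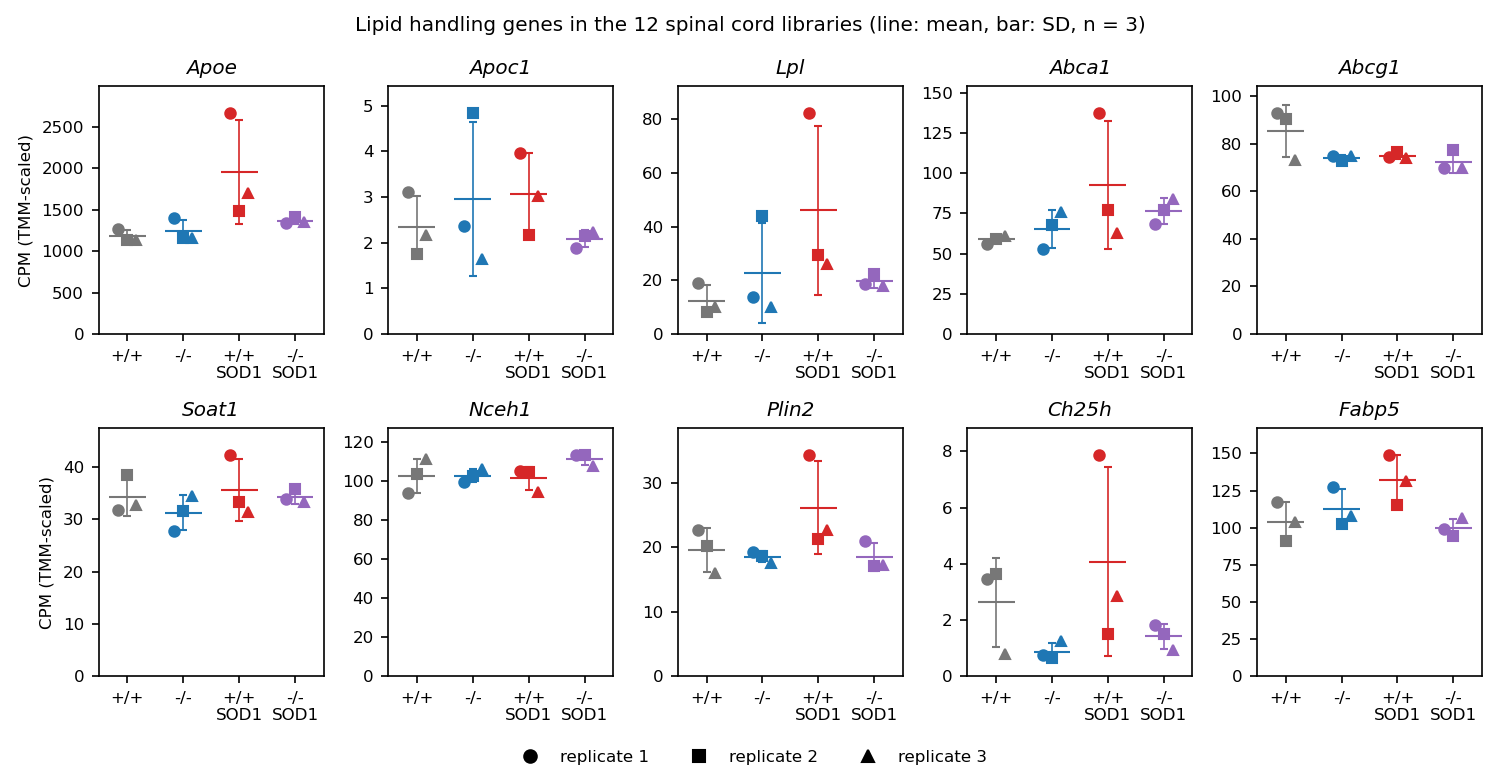
Level of each of the 10 genes (y axis, CPM scaled with TMM, starting at 0) in the 4 genotypes (x axis). Points are single mice, lines the mean and bars the SD of n = 3; Plekhg5+/+ SOD1-G93A replicate 1 is the top point for 7 of the 10 genes.

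The first comparison asked what SOD1-G93A does in mice that keep Plekhg5. Apoe rose 1.66-fold and was the only member to pass the test. The fitted difference was positive for 8 of 10 members, with Lpl showing the largest at 3.70-fold, and negative for Abcg1 and Nceh1. Called were 1 of 10 members, beside 2.47% of all 20155 genes tested (edgeR quasi-likelihood test, adjusted p under 0.05). At an unadjusted p under 0.05 there were 6 of 10 members, beside 18.2% of all genes. The groups did not overlap for 3 of 10 members, beside 20.6% of all genes. The median log2 fold change of the members was 0.40, and that of all genes -0.00099. When Plekhg5+/+ SOD1-G93A replicate 1 was left out, 6 of 10 differences were positive and the median was 0.16. When Plekhg5+/+ replicate 1 was left out instead, 8 of 10 were positive and the median was 0.58.

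Apoe (chr7:19696244-19701310, minus strand), the main apolipoprotein of the nervous system, was measured at 1274, 1137 and 1133 CPM in Plekhg5+/+ mice and at 2675, 1486 and 1705 CPM in Plekhg5+/+ SOD1-G93A mice. Every SOD1-G93A mouse lay above every Plekhg5+/+ mouse, and replicate 1 lay far above the other two. The log2 fold change was 0.73 ± 0.169 (SE; edgeR quasi-likelihood test, adjusted p = 0.0466). This call was close to the threshold. It was lost in 9 of the 12 fits that left out 1 library, in which the adjusted p ranged from 0.00933 to 0.183, and without Plekhg5+/+ SOD1-G93A replicate 1 the log2 fold change was 0.43 (adjusted p = 0.0539).

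Apoc1 (chr7:19689480-19692659, minus strand) encodes a small apolipoprotein that restrains lipid uptake, and lies 3584 bases downstream of Apoe on the same strand. It stood at 3.10, 1.76 and 2.17 CPM in Plekhg5+/+ mice and at 3.98, 2.18 and 3.03 CPM in Plekhg5+/+ SOD1-G93A mice. The groups overlapped, and the log2 fold change of 0.38 ± 0.348 was close to its error (edgeR, adjusted p = 0.613). It was 0.15 without Plekhg5+/+ SOD1-G93A replicate 1, and 0.64 without Plekhg5+/+ replicate 1, the highest control. Per length, Apoc1 was far below its neighbour in every genotype.

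Lpl (chr8:68880555-68906932, plus strand) encodes lipoprotein lipase, which releases fatty acids from lipoproteins. Its level was 19.1, 8.21 and 9.95 CPM in Plekhg5+/+ mice and 82.4, 29.5 and 26.1 CPM in Plekhg5+/+ SOD1-G93A mice. The groups did not overlap, yet both were widely spread, and the log2 fold change of 1.89 ± 0.650 did not pass the test (edgeR, adjusted p = 0.168). Without Plekhg5+/+ SOD1-G93A replicate 1 it was 1.16, and without Plekhg5+/+ replicate 1, the highest control, it was 2.34. It was called in 0 of the 12 fits that left out 1 library.

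The 2 exporters went different ways. Abca1 (chr4:53030789-53159988, minus strand), which loads cholesterol onto lipid-poor apolipoproteins, was at 56.2, 59.1 and 60.9 CPM in Plekhg5+/+ mice and at 138, 77.2 and 62.9 CPM in Plekhg5+/+ SOD1-G93A mice. The SOD1-G93A mice were all higher, but the lowest of them was close to the controls, and the log2 fold change was 0.66 ± 0.241 (edgeR, adjusted p = 0.178). Replicate 1 carried much of this difference, which was 0.25 without it. Abcg1 (chr17:31057694-31117984, plus strand), which passes cholesterol on to particles that already carry lipid, was at 93.03, 90.3 and 73.0 CPM in Plekhg5+/+ mice and at 74.2, 76.5 and 73.9 CPM in Plekhg5+/+ SOD1-G93A mice. Plekhg5+/+ replicate 3 lay below all SOD1-G93A mice and the other controls above them. The log2 fold change was -0.19 ± 0.0814 (edgeR, adjusted p = 0.236). Without that control library it was -0.31 (edgeR, adjusted p = 0.0334), so a single mouse decided whether Abcg1 was called lower.

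Genes of ester formation and storage differed less. Soat1 (chr1:156428108-156474328, minus strand), which esterifies cholesterol, was at 31.8, 38.6 and 32.7 CPM in Plekhg5+/+ mice and at 42.4, 33.3 and 31.3 CPM in Plekhg5+/+ SOD1-G93A mice. Nceh1 (chr3:27183004-27245266, plus strand), which splits cholesterol esters, was at 93.8, 103 and 111 CPM and at 105, 105 and 94.2 CPM, respectively. Both genes overlapped between the groups, with log2 fold changes of 0.06 ± 0.116 for Soat1 and -0.02 ± 0.0691 for Nceh1 (edgeR, adjusted p = 0.850 and 0.917). Plin2 (chr4:86626910-86670217, minus strand), a coat protein of lipid droplets, was at 22.7, 20.2 and 15.9 CPM in Plekhg5+/+ mice and at 34.4, 21.2 and 22.7 CPM in Plekhg5+/+ SOD1-G93A mice. The highest control overlapped with the SOD1-G93A mice, and the log2 fold change was 0.41 ± 0.171 (edgeR, adjusted p = 0.221). It was 0.16 without replicate 1 of the SOD1-G93A mice, and 0.53 without Plekhg5+/+ replicate 1, the highest control.

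Ch25h (chr19:34473783-34475148, minus strand) makes 25-hydroxycholesterol, a ligand of LXR that also restrains cholesterol synthesis. It was at 3.45, 3.62 and 0.796 CPM in Plekhg5+/+ mice and at 7.89, 1.49 and 2.85 CPM in Plekhg5+/+ SOD1-G93A mice. Both groups were widely spread and overlapped, and the log2 fold change of 0.64 ± 0.604 (edgeR, adjusted p = 0.634) turned to -0.27 without replicate 1 of the SOD1-G93A mice. Fabp5 (chr3:10012585-10016610, plus strand) binds fatty acids in the cell. It was at 117, 91.1 and 104 CPM in Plekhg5+/+ mice and at 149, 115 and 131 CPM in Plekhg5+/+ SOD1-G93A mice. Only the lowest SOD1-G93A mouse lay within the range of the controls, and the log2 fold change was 0.34 ± 0.113 (edgeR, adjusted p = 0.131).

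The level of Fabp5 is uncertain for another reason. Its counts were not whole numbers in 12 of 12 libraries, since reads with several matches or over several features were counted as fractions. Counts were also fractional in 12 libraries for Soat1, 11 for Abcg1, 10 for Apoe and Plin2, 4 for Nceh1 and 3 for Lpl. Gm6166 and Gm14328, which are Fabp5-like pseudogenes, were looked up because their patterns were the closest to Fabp5. Of the counts on these genes and on Fabp5, Fabp5 held 80.0% to 81.7%. This share was nearly constant between libraries.

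**Figure D2:**
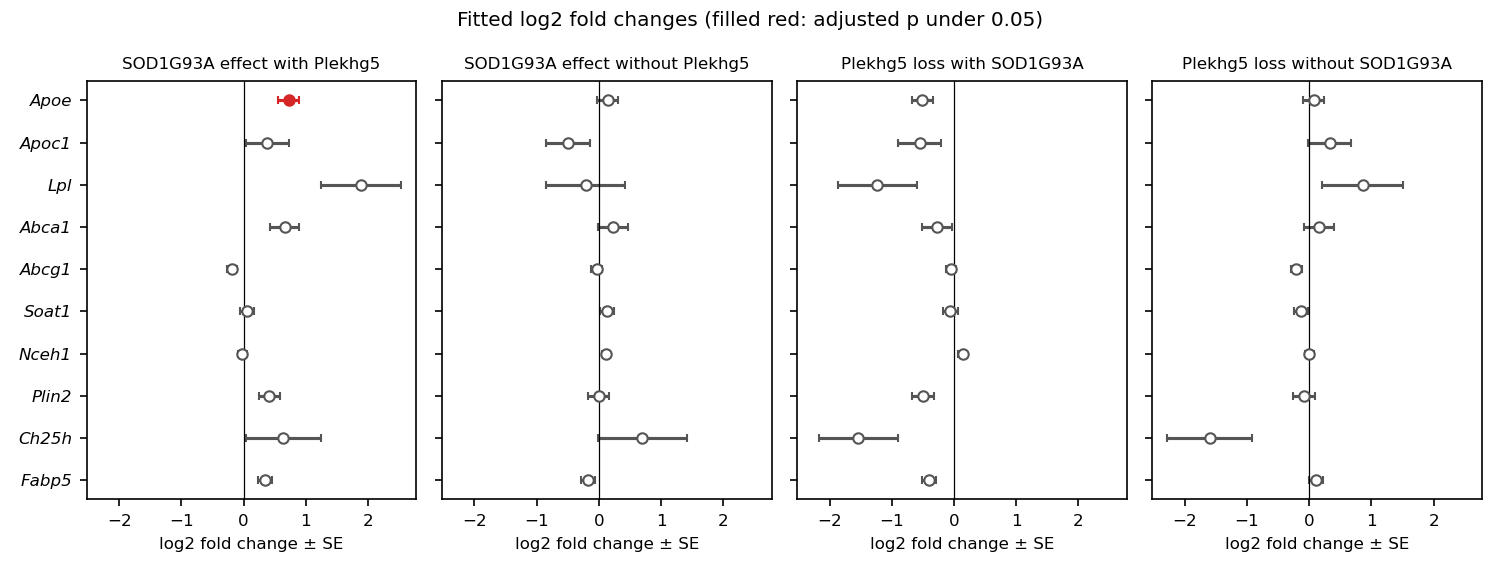
Fitted log2 fold changes of the 10 genes (x axis, with bars of 1 SE) in the comparisons of the 4 genotypes, 1 panel per comparison. The filled red point is Apoe under SOD1-G93A with Plekhg5 (0.73 ± 0.169), the only value with an adjusted p under 0.05.

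The second comparison asked whether the spinal cord of SOD1-G93A mice differs when Plekhg5 is missing. The fitted difference was negative for 9 of 10 members and positive for Nceh1, but none of them passed the test. Ch25h was 2.90-fold, Lpl 2.35-fold, Apoe 1.43-fold and Plin2 1.42-fold lower in the fit. Called were 0 of 10 members, beside 0.0347% of all genes (edgeR quasi-likelihood test, adjusted p under 0.05), and DESeq2 called 0 of 10 as well. At an unadjusted p under 0.05 there were 4 of 10 members, beside 8.64% of all genes. The groups did not overlap for 5 of 10 members, beside 19.5% of all genes. This comparison shares the Plekhg5+/+ SOD1-G93A mice with the first one, so a mouse that is high in that group raises the first difference and lowers the second. Without replicate 1 of that group, 7 of 10 differences were negative, and the median log2 fold change went from -0.45 to -0.24, with all genes at -0.0097 in the fit of 12 libraries.

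Markers of several cell types also differed between the SOD1-G93A groups, and none of them was called. All 12 microglial markers were lower in the fit without Plekhg5, with a median log2 fold change of -0.75 and 11 of 12 at an unadjusted p under 0.05. The 4 Schwann cell markers summed to 47.7, 131 and 102 CPM with Plekhg5 and to 258, 225 and 343 CPM without it, and all 4 were higher in the fit, with a median of 1.36. The 6 endothelial markers summed to 198, 209 and 168 CPM and to 276, 245 and 233 CPM, and all 6 were higher, with a median of 0.47. Neither sum overlapped between the groups. The part of these cell types in the members' values was not tested.

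In Plekhg5-/- SOD1-G93A mice, Apoe was at 1339, 1416 and 1352 CPM. These values were close to each other, and lay below every Plekhg5+/+ SOD1-G93A mouse and above every Plekhg5+/+ mouse. They overlapped with the Plekhg5-/- mice, which ranged from 1163 to 1400 CPM. The log2 fold change against Plekhg5+/+ SOD1-G93A was -0.51 ± 0.168 (edgeR, adjusted p = 0.471), and -0.22 without the highest mouse. Lpl was at 18.8, 22.2 and 17.8 CPM, again below all mice of the other SOD1-G93A group, with a log2 fold change of -1.23 ± 0.630 (edgeR, adjusted p = 0.593), and of -0.51 without that highest mouse.

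Fabp5 and Plin2 also separated the SOD1-G93A groups. Fabp5 was at 99.1, 94.4 and 106 CPM in Plekhg5-/- SOD1-G93A mice, within the range of the Plekhg5+/+ mice, and differed from Plekhg5+/+ SOD1-G93A by -0.40 ± 0.113 on the log2 scale (edgeR, adjusted p = 0.402). Plin2 was at 21.0, 17.1 and 17.3 CPM, just under the lowest Plekhg5+/+ SOD1-G93A mouse, with a difference of -0.50 ± 0.171 (edgeR, adjusted p = 0.507), or -0.25 without the highest Plekhg5+/+ SOD1-G93A mouse. Nceh1 was the only member that was higher in all Plekhg5-/- SOD1-G93A mice, with 114, 113 and 107.6 CPM and a log2 fold change of 0.14 ± 0.0690 (edgeR, adjusted p = 0.589).

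The other members overlapped between the SOD1-G93A groups. Ch25h was at 1.82, 1.49 and 0.932 CPM in Plekhg5-/- SOD1-G93A mice, and its log2 fold change of -1.54 ± 0.635 (edgeR, adjusted p = 0.545) was -0.63 without replicate 1 of the other group. Abca1 was at 68.2, 77.05 and 83.9 CPM, with a log2 fold change of -0.28 ± 0.239 that turned to 0.13 without that mouse. Apoc1 was at 1.88, 2.16 and 2.23 CPM, with a log2 fold change of -0.55 ± 0.350, or -0.32 without that mouse. Abcg1 (69.6, 77.4 and 69.7 CPM) and Soat1 (33.8, 35.7 and 33.3 CPM) differed by -0.05 ± 0.0815 and -0.06 ± 0.116, which is less than the errors.

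A further comparison addressed loss of Plekhg5 alone, without the transgene. The members showed no common direction, with 6 of 10 differences positive and a median log2 fold change of 0.04, beside 0.0054 for all genes. Called were 0 of 10 members, beside 0.0298% of all genes (edgeR quasi-likelihood test, adjusted p under 0.05), and DESeq2 called 0 of 10. At an unadjusted p under 0.05 there were 2 of 10 members, Ch25h and Abcg1, both lower, beside 5.32% of all genes. The groups overlapped for all 10 members, whereas 8.74% of all genes did not overlap.

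Ch25h was at 0.731, 0.633 and 1.23 CPM in Plekhg5-/- mice. The controls with 3.45 and 3.62 CPM were well above this range and the one with 0.796 CPM lay within it, and the log2 fold change was -1.60 ± 0.681 (edgeR, adjusted p = 0.929). Abcg1 was at 74.8, 72.8 and 74.8 CPM in Plekhg5-/- mice, again with only Plekhg5+/+ replicate 3 in their range, and the log2 fold change was -0.21 ± 0.0814 (edgeR, adjusted p = 0.929). Apoe was at 1400, 1163 and 1164 CPM, which overlapped with the controls, with a log2 fold change of 0.07 ± 0.168.

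Markers of other cell types moved with Ch25h and Abcg1 here. The 4 Schwann cell markers summed to 200, 234 and 57.1 CPM in Plekhg5+/+ mice and to 46.8, 55.4 and 92.7 CPM in Plekhg5-/- mice, and the 6 markers of perivascular macrophages and monocytes to 27.5, 25.6 and 18.1 CPM and to 14.1, 18.8 and 15.7 CPM. All 4 and all 6 were lower in the fit, and none was called by edgeR, with 3 of 4 and 2 of 6 at an unadjusted p under 0.05. The control with the fewest of both, replicate 3, was also the control with the lowest Ch25h and Abcg1. The part of these cells in the values was not tested.

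Lpl and Apoc1 in Plekhg5-/- mice depended on the library with transcripts of fat cells. Lpl, which is abundant in fat, was at 13.9, 43.9 and 10.05 CPM, and its log2 fold change of 0.86 ± 0.649 became -0.06 without replicate 2. Apoc1 was at 2.37, 4.85 and 1.64 CPM, and its log2 fold change of 0.33 ± 0.348 became -0.23 without replicate 2. These fits kept Plekhg5+/+ replicate 1, the control with the most Ucp1. Without both libraries the log2 fold change of Apoc1 was 0.017, and that of Lpl stayed positive. Both genes were highest in replicate 2, in which Fabp4, a fatty acid binding protein of adipocytes, reached 88.3 CPM, compared with 0.322 to 12.9 CPM in the other 11 libraries. The part of fat tissue in these values was not tested.

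For the remaining members, Plekhg5-/- mice overlapped with their controls. Abca1 was at 52.5, 67.5 and 76.1 CPM, Soat1 at 27.8, 31.7 and 34.5 CPM and Nceh1 at 99.5, 103 and 106 CPM. Plin2 was at 19.3, 18.6 and 17.6 CPM and Fabp5 at 127, 102 and 107.9 CPM. Their log2 fold changes ranged between -0.13 ± 0.116 for Soat1 and 0.15 ± 0.241 for Abca1.

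The last pair of groups set Plekhg5-/- SOD1-G93A against Plekhg5-/- mice, and thus the effect of the transgene where Plekhg5 is missing. It shares no mouse with the first comparison. Differences were positive for 5 and negative for 5 of 10 members, with a median log2 fold change of 0.06, beside -0.0049 for all genes. Called were 0 of 10 members, beside 0.00496% of all genes (edgeR quasi-likelihood test, adjusted p under 0.05), and DESeq2 called 0 of 10. At an unadjusted p under 0.05 there were also 0 of 10, beside 5.38% of all genes. Nceh1 was the only member without overlap, beside 12.5% of all genes, and was higher with the transgene by 0.12 ± 0.0690 on the log2 scale (edgeR, adjusted p = 0.950). The log2 fold change of Apoe was 0.14 ± 0.168 and that of Lpl -0.21 ± 0.633, and the latter became 0.71 without Plekhg5-/- replicate 2. Without that library, Apoc1 went from -0.50 to 0.056.

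Whether the transgene acted differently with and without Plekhg5 was tested with the interaction. Called were 0 of 10 members, beside 0% of all genes (edgeR quasi-likelihood test, adjusted p under 0.05). DESeq2 called 0 of 10 members, and at an unadjusted p under 0.05 there were 3 of 10, beside 9.05% of all genes. These were Fabp5 (-0.51 ± 0.160 on the log2 scale, adjusted p = 0.407), Apoe (-0.59 ± 0.238, adjusted p = 0.501) and Lpl (-2.09 ± 0.904, adjusted p = 0.536). The value of Lpl was -1.18 without Plekhg5-/- replicate 2 and -1.37 without Plekhg5+/+ SOD1-G93A replicate 1. Without the latter mouse the value of Apoe was -0.29, that of Abca1 went from -0.43 to -0.028 and that of Plin2 from -0.42 to -0.17. The value of Apoc1 went from -0.88 to -0.32 without Plekhg5-/- replicate 2. An effect of the transgene on Apoe that passes the test with Plekhg5 and not without it is therefore not shown to differ between the genotypes.

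Microglial and astrocyte transcripts moved together with several members. The 12 microglial markers summed to 475 to 553 CPM in Plekhg5+/+, 527 to 720 CPM in Plekhg5-/-, 912 to 1686 CPM in Plekhg5+/+ SOD1-G93A and 680 to 761 CPM in Plekhg5-/- SOD1-G93A mice, and none was at 0 in any library. In the first comparison 11 of 12 were called, all higher (edgeR quasi-likelihood test, adjusted p under 0.05), with Cd68, a lysosomal protein of phagocytes, at a log2 fold change of 2.36 and Trem2, a lipid receptor of microglia, at 1.79. Of 8 astrocyte markers Gfap alone was called, with 1.23. The median of the 8 was 0.11, with 7 higher and 1 lower in the fit, beside a median of 1.25 for the microglial markers. The astrocyte markers summed to 6911 to 7028 CPM in Plekhg5+/+ and 8394 to 11571 CPM in Plekhg5+/+ SOD1-G93A mice. Over the 12 libraries, the correlation of a member with the mean log2 level of the microglial markers was 0.96 for Apoe, 0.82 for Lpl, 0.76 for Plin2, 0.73 for Fabp5 and 0.73 for Abca1. It was 0.47 for Ch25h, 0.44 for Apoc1, 0.33 for Soat1, -0.39 for Abcg1 and -0.035 for Nceh1. With the astrocyte markers it was of like size, at 0.94 for Apoe, 0.73 for Lpl, 0.78 for Plin2, 0.72 for Fabp5, 0.57 for Abca1 and 0.54 for Ch25h. These correlations are descriptions over libraries that share genotypes and depth. The part of microglial or astrocyte number in the members' values was not tested.

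**Figure D3:**
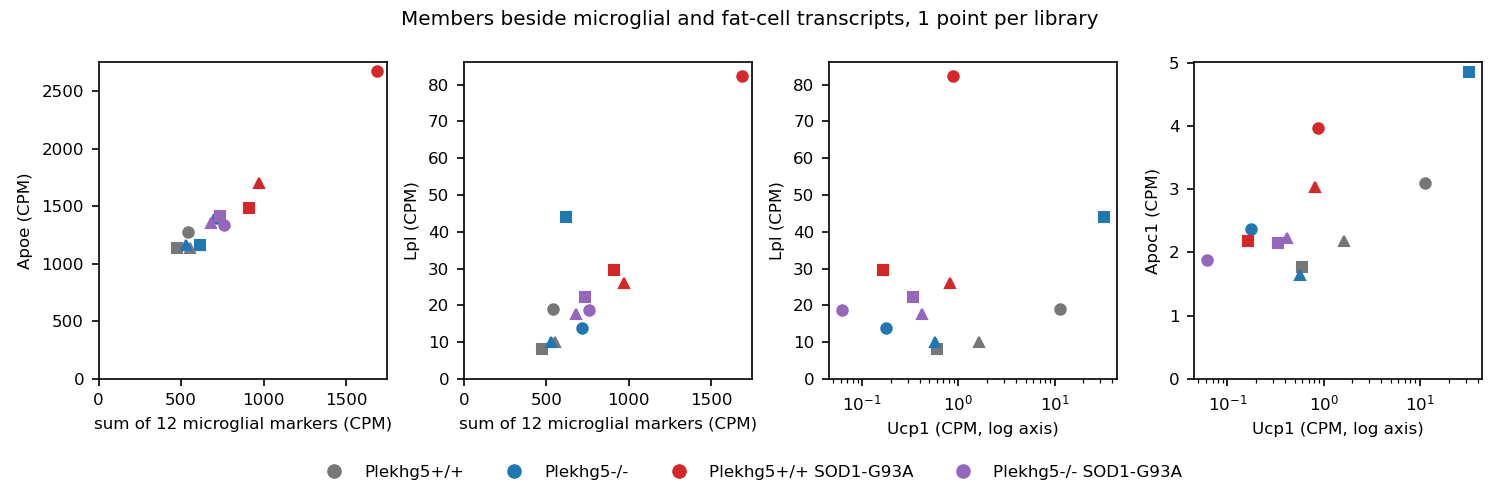
Apoe and Lpl (y axis, CPM) against the sum of 12 microglial markers (x axis, CPM), and Lpl and Apoc1 against the brown fat gene Ucp1 (x axis, CPM, log scale), with 1 point per library, a colour per genotype and a shape per replicate number. Apoe and Lpl are highest in the Plekhg5+/+ SOD1-G93A library with the highest microglial sum (1686 CPM), and the Plekhg5-/- library with the most Ucp1 (32.5 CPM) has the highest Lpl of its genotype (43.9 CPM).

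The genes with the pattern most like that of a member over the 12 libraries were named by Pearson's correlation of log2 levels. For Apoe these were Lamp2 (0.98), Nek6 (0.98) and Glipr2 (0.98), and for Lpl Tspo (0.94), Gfpt2 (0.91) and Pde3b (0.91). Plin2 was closest to Pxdc1 (0.96), Ccl12 (0.95) and Nras (0.95), and Ch25h to Edem1 (0.94), Plaur (0.94) and Sec61a1 (0.91). Abca1 was closest to St8sia6 (0.96), Abcg1 to Rnf125 (0.94), Soat1 to Tead1 (0.95) and Nceh1 to Ntrk2 (0.96). Apoc1 had the weakest neighbour, Acadm (0.92), followed by Aaas (0.88) and Acads (0.86). These correlations are the highest among 20155 genes tested, and the part of single libraries in them was not tested.

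The list of other genes of lipid handling held few called genes. Of 64 such genes, grouped by role, 58 could be tested, and 3 were called in the first comparison, all higher, beside 2.47% of all genes. Their median log2 fold change was -0.02, beside -0.00099 for all genes, with 28 of 58 positive. None of the 58 was called in the other comparisons or in the interaction (edgeR quasi-likelihood test, adjusted p under 0.05), and 8, 6, 9 and 6 of 58 had an unadjusted p under 0.05 there (loss of Plekhg5 with and without the transgene, SOD1-G93A without Plekhg5, and the interaction), beside 8.64%, 5.32%, 5.38% and 9.05% of all genes. DESeq2 called 0 of 58 in these 4 comparisons.

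The 3 called genes belong to different roles. Clu, an apolipoprotein and chaperone also known as clusterin, was at 684, 598 and 603 CPM in Plekhg5+/+ and 1211, 827 and 841 CPM in Plekhg5+/+ SOD1-G93A mice, without overlap, and its log2 fold change was 0.61 ± 0.128 (edgeR, adjusted p = 0.0299). Msr1, a scavenger receptor of macrophages, was at 0.725, 0.850 and 0.582 CPM and at 3.35, 1.09 and 1.89 CPM, with a log2 fold change of 1.55 ± 0.337 (edgeR, adjusted p = 0.0340). Mylip, which directs LDL receptors to degradation and is a target of LXR, was at 10.6, 11.3 and 9.86 CPM and at 20.5, 13.6 and 14.8 CPM, with a log2 fold change of 0.62 ± 0.131 (edgeR, adjusted p = 0.0295). As for Apoe, replicate 1 was the highest SOD1-G93A mouse for each of them. Without this library 0 of 58 genes were called, as was the case without Plekhg5+/+ replicate 1, without Plekhg5+/+ replicate 2 or with only the 2 genotypes compared. In Plekhg5-/- SOD1-G93A against Plekhg5+/+ SOD1-G93A the log2 fold changes were -0.37 ± 0.128 for Clu, -0.63 ± 0.314 for Msr1 and -0.26 ± 0.129 for Mylip, which did not pass the test (edgeR, adjusted p = 0.517, 0.589 and 0.589).

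By role, 1 of 5 tested lipoprotein genes, 1 of 10 receptors and 1 of 10 genes of oxysterol making and sensing were called in the first comparison. None of the 6 further transporters of the ABC family, the 6 genes of lysosomal export, the 13 genes of droplets and esters, the 6 genes of fatty acid uptake and the 2 partners of lipoprotein lipase was called there by edgeR, and 3, 3, 1, 0 and 0 of them had an unadjusted p under 0.05, beside 18.2% of all genes. The droplet genes Plin1 and Cidec, which are made mainly in fat cells, were highest in Plekhg5-/- replicate 2, at 2.83 and 8.41 CPM.

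**Figure D4:**
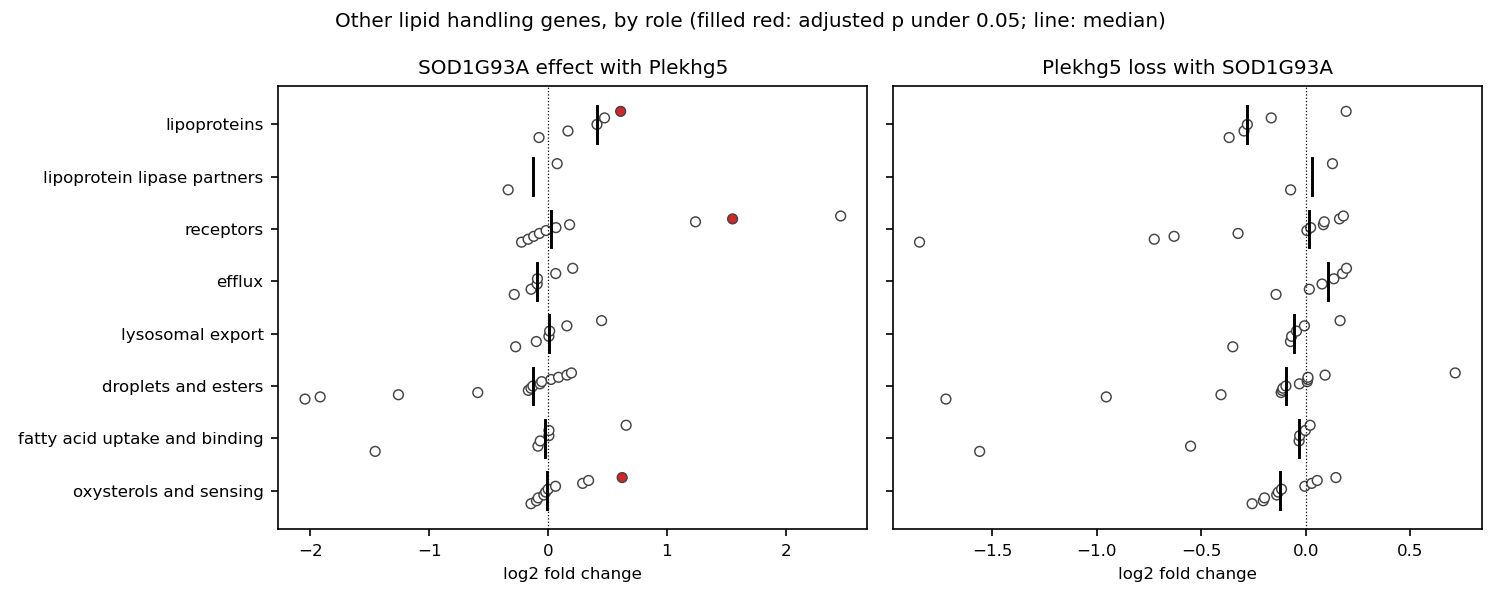
Log2 fold changes (x axis) of the 58 tested genes of lipid handling, by role (y axis), under SOD1-G93A with Plekhg5 (left) and for loss of Plekhg5 with SOD1-G93A (right). Points are genes and lines the median of a role; the filled red points are Clu (0.61), Msr1 (1.55) and Mylip (0.62), all in the left panel.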

How the data were processed

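Poly-A RNA of spinal cord was sequenced from 12 mice, 3 of each of 4 genotypes, which were grouped by the sample titles. According to the study's methods, the authors trimmed reads with Cutadapt 2.4, mapped them with STAR 2.7.2b to GRCm38.p6 plus human SOD1 cDNA, then counted them by strand on exons of the RefSeq annotation with featureCounts 1.6.4. Reads with several matches or over several features were counted as fractions. The deposited values are therefore estimated counts that the authors left neither normalized nor filtered. All columns of counts were matched to a mouse.

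Counts were rounded and filtered with filterByExpr (minimum count 10), which kept 20155 of 45906 genes and all 10 members. Libraries were scaled with TMM, and all 12 were fitted together with robust quasi-likelihood tests in edgeR 4.0.16 (R 4.3.3), with genotype as the only term. P-values were adjusted over all genes tested (Benjamini-Hochberg, 0.05). The SE of a log2 fold change was derived from its F statistic. CPM and RPKM used the TMM-scaled library sizes, and the joined exon length of the deposited table. Log2 levels used a prior count of 2. The tests were checked on simulated counts. Alternatives were DESeq2 1.42.0 with and without its prior, other scaling, filters and samples, a replicate block, a Y-linked term (over 1000 counts on 4 genes) and leaving out each library. The counts of replicates of a genotype were further apart than sampling noise allows (chi-square per degree of freedom 5.42 to 25.9).

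The members, gene lists and tests were chosen with earlier results of these data known. Named were all members, the targeted genes, each lipid handling gene called, for each member its closest genes, and markers given beside a member. Ucp1, Gm6166 and Gm14328 were named after their values were seen.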

Additional observations from a re-analysis of the deposited data

Results flagged for a closer look

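The fitted differences of Lpl and Fabp5 had opposite signs under SOD1-G93A with and without Plekhg5. With Plekhg5, every SOD1-G93A mouse lay above the mean of its controls, and without Plekhg5, every SOD1-G93A mouse lay below the mean of its controls. The interaction was -2.09 ± 0.904 on the log2 scale for Lpl (edgeR quasi-likelihood test, adjusted p = 0.536) and -0.51 ± 0.160 for Fabp5 (edgeR, adjusted p = 0.407), so neither difference passed the test. For Lpl the mean of the Plekhg5-/- controls was 22.6 ± 18.5 CPM (SD, n = 3) and included the library rich in fat transcripts. Without that library, Plekhg5-/- replicate 2, the effect of SOD1-G93A without Plekhg5 turned from -0.21 to 0.71 for Lpl, so its opposite direction rested on that library.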

How the results depend on the processing

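The only call of a member, Apoe under SOD1-G93A with Plekhg5, held in 9 of 21 alternatives and was lost in 12. Of 1040 values of members under alternatives, nearly all of them not called to begin with, 982 kept their direction and their side of the threshold, 44 changed sign, 12 lost and 2 gained a call. The cause of the exceptions was not tested. Under SOD1-G93A with Plekhg5, 498 genes were called by edgeR, 1159 and 1190 by DESeq2 without and with its prior, 3 with only the 2 genotypes compared, 1 without the 2 libraries richest in fat-cell transcripts (Plekhg5+/+ replicate 1 and Plekhg5-/- replicate 2, a setting chosen after seeing the data), and 2 to 771 with 1 library left out. Members called were 1 in that comparison, 0 without a filter on low counts, with only the 2 genotypes or without the fat-rich libraries, and 0 to 1 with 1 library left out. For Apoe the adjusted p was 0.101, 0.140 and 0.129 under these 3 settings (edgeR). Apoe was called in 6 of the 9 settings other than leaving out a library, among them DESeq2 with and without its prior. Lipid handling genes called were 3, and 7, 7, 0 and 0 under DESeq2 without and with its prior, the 2 genotypes only and the fat-rich libraries left out, and 0 to 6 with 1 library left out. With the replicate number as a block, 2 members (Apoe, and Fabp5 with an adjusted p of 0.0312) and 5 lipid handling genes were called. The block changed no other call of a member. The deviations of same-numbered mice correlated by -0.163 to 0.318, with a median of 0.00545. Those of differently numbered mice correlated by -0.334 to 0.283, with a median of -0.0343. These ranges overlapped, so no clear pairing by number was seen, and a weak one could not be told from none.

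In SOD1-G93A mice without against with Plekhg5, 7 genes were called by edgeR, 72 and 114 by DESeq2 without and with its prior, 11 with 2 genotypes only and 4 to 8 with 1 library left out. For loss of Plekhg5 alone the counts were 6, 34, 32 and 5 to 59 (by edgeR, DESeq2 without and with prior, and with 1 library left out). For SOD1-G93A without Plekhg5 they were 1, 45, 41 and 1 to 9, with 0 at 10 counts or more in every library and 20 with 2 genotypes only. For the interaction they were 0, 95, 112 and 0 to 40, with 1 gene without a filter.

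Changes of sign concerned members that were not called. Without the fat-rich libraries Soat1 under SOD1-G93A with Plekhg5 was -0.016, Nceh1 and Plin2 under loss of Plekhg5 alone were -0.068 and 0.021, Apoc1, Lpl and Plin2 under SOD1-G93A without Plekhg5 were 0.061, 0.71 and 0.0029, and Ch25h in the interaction was -0.34. Nceh1 under loss of Plekhg5 alone was also -0.0017 and -0.0016 by DESeq2 without and with its prior, -0.00082 with size factors, -0.0058 without a filter and -0.0018 with the Y-linked term. Plin2 under SOD1-G93A without Plekhg5 was 0.064 with the Y-linked term, and Ch25h in the interaction -0.047 by DESeq2 with its prior. With 1 library left out, the range under SOD1-G93A with Plekhg5 was -0.088 to 0.15 for Soat1, -0.082 to 0.029 for Nceh1 and -0.27 to 1.01 for Ch25h. For loss of Plekhg5 with SOD1-G93A it was -0.49 to 0.13 for Abca1 and -0.14 to 0.086 for Soat1. For loss of Plekhg5 alone it was -0.020 to 0.13 for Apoe, -0.23 to 0.62 for Apoc1, -0.055 to 1.32 for Lpl, -0.060 to 0.055 for Nceh1 and -0.22 to 0.036 for Plin2. For SOD1-G93A without Plekhg5 it was -0.79 to 0.056 for Apoc1, -0.56 to 0.71 for Lpl and -0.10 to 0.046 for Plin2. For the interaction it was -0.015 to 0.22 for Soat1 and -0.31 to 0.97 for Ch25h. Counts per library were lowest for Ch25h (21 to 254) and Apoc1 (52 to 161), which limits the precision of both.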

Other observations

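Ch25h was lower in the fit in both comparisons of Plekhg5-/- with Plekhg5+/+ mice, which share no library. Its log2 fold change was -1.60 ± 0.681 without the transgene and -1.54 ± 0.635 with it (edgeR quasi-likelihood test, adjusted p = 0.929 and 0.545), and neither passed the test. The latter was -0.63 without Plekhg5+/+ SOD1-G93A replicate 1. The 6 Plekhg5-/- libraries lay between 0.633 and 1.82 CPM, and the 6 Plekhg5+/+ libraries between 0.796 and 7.89 CPM, so the ranges overlapped. Abcg1, Soat1 and Plin2 were also lower in the fit in both comparisons. Of the 10 members, 4 were lower without the transgene and 9 with it. The 4 Schwann cell markers were all lower in the comparison without the transgene and all higher in the one with it. Their median log2 fold changes were -1.14 and 1.36. The 6 markers of perivascular macrophages and monocytes went the same way, with -0.58 and 0.36. The part of these cells in the values of Ch25h was not tested.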
